A study of Rattus norvegicus with 4 samples.

Results

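Low-Cartpt lactotrophs are the prolactin cells of the rat pituitary whose RNA holds almost none of Cartpt, the transcript for the precursor of the CART peptide. The cells were selected on their own counts of unique molecular identifiers (UMIs), each of which stands for 1 captured RNA molecule. A barcode was included if it held 1000 UMIs and 500 genes or more, had no more than 20% of UMIs from mitochondrial genes, and had Prl at 20% of its UMIs or more, Gh1 and Pomc each below 5% and Cartpt below 0.03%. These limits took in 5986 of the 20381 cells that passed the UMI, gene and mitochondrial limits, out of 32455 deposited barcodes. Barcodes that met all limits except the one on Cartpt are called Cartpt-positive lactotrophs, and there were 509 of them.

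The pituitaries came from female Sprague Dawley rats that were 75 days old and taken at any stage of the estrous cycle. In one preparation 30 glands were dissected, and the pooled posterior and anterior parts gave 1 library each. In the other preparation 30 further glands were kept whole, and 1 cell suspension was run on 2 lanes of a droplet instrument. Cells were dispersed with trypsin and EDTA, and 3′ transcript ends were sequenced. The study therefore has 2 independent pools of animals, with the lanes summed. The p-values below rest on how much differences between cell classes varied from 1 pool to the other, over all 5 classes fitted.

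Lactotrophs make and release prolactin, the hormone that drives milk production. Dopamine from the hypothalamus holds their secretion down through the D2 receptor, and thyrotropin-releasing hormone, vasoactive intestinal peptide and estrogen raise it. They share with somatotrophs, the growth hormone cells, a dependence on the transcription factor POU1F1.

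The low-Cartpt lactotrophs numbered 422 in the posterior library, 2121 in the anterior library, and 1830 and 1613 on the first and second lanes of whole glands. They made up 10.7% of the cells kept in the posterior library (exact 95% binomial interval 9.77 to 11.7%), against 37.4% in the anterior library (36.2 to 38.7%). On the whole-gland lanes the share was 32.0% (30.8 to 33.3%) and 31.8% (30.6 to 33.1%). Of all lactotrophs under the limits above, 86.5% in the posterior library were low in Cartpt (83.1 to 89.4%), against 90.1% in the anterior library (88.8 to 91.2%). The whole-gland lanes gave 94.1% (92.9 to 95.1%) and 94.5% (93.3 to 95.5%). With 1 library per lobe, these differences have no replicate check, and the intervals cover counting error only. The share depends on the cells kept around it: with a mitochondrial limit of 10% it was 17.8% in the posterior library, against 45.1% in the anterior library, and among cells with at least 10000 UMIs 17.1% against 56.3%. The mitochondrial limit of 20% was exceeded by 45.4% of posterior barcodes, against 27.2% of anterior barcodes.

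Depth was high and differed between the lobes. The median low-Cartpt lactotroph had 27071 UMIs and 3649.5 genes in the posterior library, against 15547 UMIs and 2569 genes in the anterior library, with 16638 and 16974 UMIs on the whole-gland lanes. Prl held a median of 48.6% of a cell's UMIs in the posterior library, against 47.4% in the anterior library and 49.9% on the first whole-gland lane. Over all libraries 3.42% of the cells lay between 20 and 30% Prl, and 5.08% lay at 60% or above. No Cartpt UMI at all was found in 86.7% of the posterior cells, against 91.7% of the anterior cells and 92.7% on each whole-gland lane. The Scrublet doublet score exceeded 0.25 in 3.02% of the cells, which were kept. Of the barcode sequences, 89 occurred in more than 1 library, and 1 was shared among the low-Cartpt lactotrophs of different libraries.

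Lactotroph markers outside the selection rule were compared between low-Cartpt lactotrophs and somatotrophs. Klk1, Gal, Agtr1b and Hepacam2 had been set as markers of these cells with earlier results of these data known. Their levels are therefore no independent check of the lactotroph label. Expression is given as CPM, UMIs summed over all cells of a class in a preparation and scaled to a total of 1000000. Prl, Gh1, Pomc, Cartpt and the 13 genes whose names begin with Mt- were removed first. Klk1 (ENSRNOG00000032857), which encodes glandular kallikrein, a protease known from prolactin cells, stood at 1517 CPM in dissected lobes and 1469 CPM in whole glands. In somatotrophs it stood at 11.1 and 12.1 CPM. Gal, the precursor of the peptide galanin, stood at 1245 and 2654 CPM, against 128 and 124 CPM in somatotrophs. Agtr1b, a receptor for angiotensin II, was found at 165 and 205 CPM, against 1.62 and 2.07 CPM. Hepacam2, a cell adhesion protein, was found at 432 and 428 CPM, against 48.3 and 49.7 CPM. Drd2, the D2 dopamine receptor, was found at 83.6 and 76.5 CPM, against 0.668 and 0.786 CPM. Among the cell classes summed, Drd2 was highest in Pomc-rich cells, and its low-Cartpt level was 62.5% of theirs. All 5 markers were therefore well above the somatotroph level in both preparations. The 2 somatotroph markers Ghrhr and Sstr2, the receptors for growth hormone-releasing hormone and somatostatin, summed to 1.43 and 2.70 CPM, against 121 and 121 CPM in somatotrophs.

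The stretches just upstream of 4 genes are shown because these genes carry the description that follows: Prl selects the cells, Klk1 and Gal were higher in them than in Cartpt-positive lactotrophs, and Cartpt sets the boundary. Each run gives the 250 bases before the start that RefSeq annotates on the GRCr8 assembly, 5′ to 3′ in the direction of the gene. The starts were not checked against these reads. Capitals mark every match to 3 motifs, searched on both strands: ATGNATA, the kind of site POU1F1 binds, TGACGTCA, the cyclic AMP response element, and TATAAA, the TATA box. The stretches lie at chr17:38298218-38298467 on the minus strand for Prl, chr1:103778902-103779151 on the plus strand for Klk1, chr1:210084573-210084822 on the minus strand for Gal, and chr2:32991236-32991485 on the minus strand for Cartpt.
Prl: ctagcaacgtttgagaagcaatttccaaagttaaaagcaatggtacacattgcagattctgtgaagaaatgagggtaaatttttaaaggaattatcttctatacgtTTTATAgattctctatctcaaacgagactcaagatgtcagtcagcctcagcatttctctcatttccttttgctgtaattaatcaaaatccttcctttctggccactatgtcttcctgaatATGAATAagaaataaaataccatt
Klk1: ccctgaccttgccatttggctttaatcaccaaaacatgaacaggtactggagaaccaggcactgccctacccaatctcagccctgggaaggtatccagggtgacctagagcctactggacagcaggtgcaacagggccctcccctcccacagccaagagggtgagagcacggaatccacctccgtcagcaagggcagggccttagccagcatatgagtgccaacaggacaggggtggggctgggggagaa
Gal: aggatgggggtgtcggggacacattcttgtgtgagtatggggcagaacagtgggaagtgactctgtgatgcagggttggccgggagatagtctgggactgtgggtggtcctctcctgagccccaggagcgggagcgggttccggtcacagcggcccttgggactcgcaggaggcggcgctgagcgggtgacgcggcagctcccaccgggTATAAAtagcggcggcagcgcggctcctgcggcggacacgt
Cartpt: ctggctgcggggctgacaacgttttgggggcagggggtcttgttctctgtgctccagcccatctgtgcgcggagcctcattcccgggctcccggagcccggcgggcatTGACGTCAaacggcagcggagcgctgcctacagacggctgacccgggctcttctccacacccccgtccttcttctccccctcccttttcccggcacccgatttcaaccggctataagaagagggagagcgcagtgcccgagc
The Prl stretch holds 1 ATGNATA match, which begins 24 bases before the start, and 1 TATAAA match on the opposite strand, which begins 144 bases before it. The Gal stretch holds 1 TATAAA match that begins 41 bases before the start, and the Cartpt stretch holds 1 TGACGTCA match that begins 142 bases before it. None of the 3 motifs has a match in the Klk1 stretch, and no matches overlap. Of 33469 such stretches in the table, 8.73% hold ATGNATA, 1.59% hold TGACGTCA and 12.9% hold TATAAA. A match describes the letters and shows no binding.

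The receptors and regulators of a prolactin cell were present at graded levels. Pou1f1, the lineage factor, stood at 904 CPM in the posterior library, against 789 CPM in the anterior library, with 997 and 1000.03 CPM on the whole-gland lanes. Six6, a homeobox factor of the pituitary, stood at 1328 CPM in dissected lobes and at 1545 CPM in whole glands. Esr1, the estrogen receptor alpha, was at 24.4 CPM in the posterior and 31.6 CPM in the anterior library and at 23.1 and 26.6 CPM on the whole-gland lanes. Trhr, the thyrotropin-releasing hormone receptor, was at 19.1 and 29.3 CPM in the posterior and anterior libraries and at 19.4 and 18.3 CPM on the lanes. Pgr, the progesterone receptor, was at 15.6, 25.9, 20.6 and 22.8 CPM in the same order. The levels of Esr1, Trhr and Pgr thus overlapped between the preparations. Vip, vasoactive intestinal peptide, stood at 1.76 and 1.77 CPM in the posterior and anterior libraries, below its 5.58 and 11.6 CPM on the lanes. Its receptor Vipr2 and the growth factor receptor Ret were below 1 CPM in every library, and both were too low to be tested. Prlr, the prolactin receptor, lay between 0.586 and 1.62 CPM, and Isl1, a LIM homeobox factor, between 2.15 and 6.01 CPM.

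Against Cartpt-positive lactotrophs, the low-Cartpt cells carried more Klk1, Gal and Dlk1 and far less of the transcripts for neuropeptide W, neurogranin, decorin and the granins Chgb and Vgf. The comparison asks how the 2 kinds of prolactin cell differ beyond Cartpt itself. It used edgeR's quasi-likelihood test on sums of counts per class and preparation, and genes were called where the p adjusted by Benjamini-Hochberg fell under 0.05 and the log2 fold change was 1 or more in either direction. Of 13014 genes tested, 189 were higher (1.45%) and 281 were lower (2.16%), with a median log2 fold change over all tested genes of 0.01. At an unadjusted p under 0.05 there were 2870 genes. All 189 higher genes and 269 of the 281 lower genes went the same way in both preparations. Without the anterior library 122 genes were higher and 197 lower, and 56.0% of the 470 calls were made again in the same direction. With any library left out the thyrotroph class fell under the minimum of 50 cells and left the fit. With only that class left out and all libraries kept, an alternative chosen after the data were seen, 205 genes were higher and 318 lower, and 99.4% of the calls were made again. DESeq2 called 117 higher and 247 lower.

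Among the genes higher in low-Cartpt lactotrophs, Klk1 stood at 1366 CPM in the posterior and 1566 CPM in the anterior library and at 1449 and 1491 CPM on the whole-gland lanes. In Cartpt-positive lactotrophs it stood at 257 CPM in the posterior and 477 CPM in the anterior library and at 305 and 334 CPM on the lanes. The 4 libraries of low-Cartpt cells therefore all lay above the 4 of Cartpt-positive cells, with a log2 fold change of 1.96 ± 0.10 (SE, adjusted p = 4.28e-10). Dlk1, an imprinted gene for a Notch-related membrane protein, stood at 643 and 600.1 CPM, against 120 and 99.8 CPM (log2 fold change 2.40 ± 0.09, adjusted p = 7.57e-12). Gal stood at 1029, 1315, 2585 and 2731 CPM in the posterior, anterior and the whole-gland libraries of low-Cartpt cells. In Cartpt-positive cells it stood at 397, 699, 1141 and 754 CPM. The Gal ranges overlapped between classes, since the posterior low-Cartpt cells lay below the Cartpt-positive cells of the first whole-gland lane, but within each library the low-Cartpt cells were higher (log2 fold change 1.198 ± 0.153, adjusted p = 4.28e-05).

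The other large increases were of genes at lower levels. Pdlim3, a PDZ and LIM domain protein of the actin cytoskeleton, had the largest called log2 fold change among genes of at least 50 CPM, 2.63 ± 0.18, with 68.7 and 42.4 CPM against 10.96 and 5.29 CPM. The keratin gene Krt25 had a log2 fold change of 2.14 ± 0.14, with 122 and 119.8 CPM in low-Cartpt cells, against 30.2 and 19.2 CPM. Mlf1, Mzb1, Apoa4 and Kctd4 complete the 8 largest, with log2 fold changes from 1.68 to 2.13 and adjusted p of at most 0.000188. Mzb1 encodes a chaperone of the endoplasmic reticulum and Apoa4 an apolipoprotein. Igf1, insulin-like growth factor 1, was also higher, with 119 and 99.6 CPM against 53.7 and 27.8 CPM (log2 fold change 1.29 ± 0.13). Each of these genes except Dlk1 and Igf1 had its highest level among the cell classes summed in the low-Cartpt lactotrophs. Dlk1 was highest in somatotrophs, where the low-Cartpt level was 12.9% of theirs, and Igf1 in Dcn-rich cells.

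**Figure D1:**
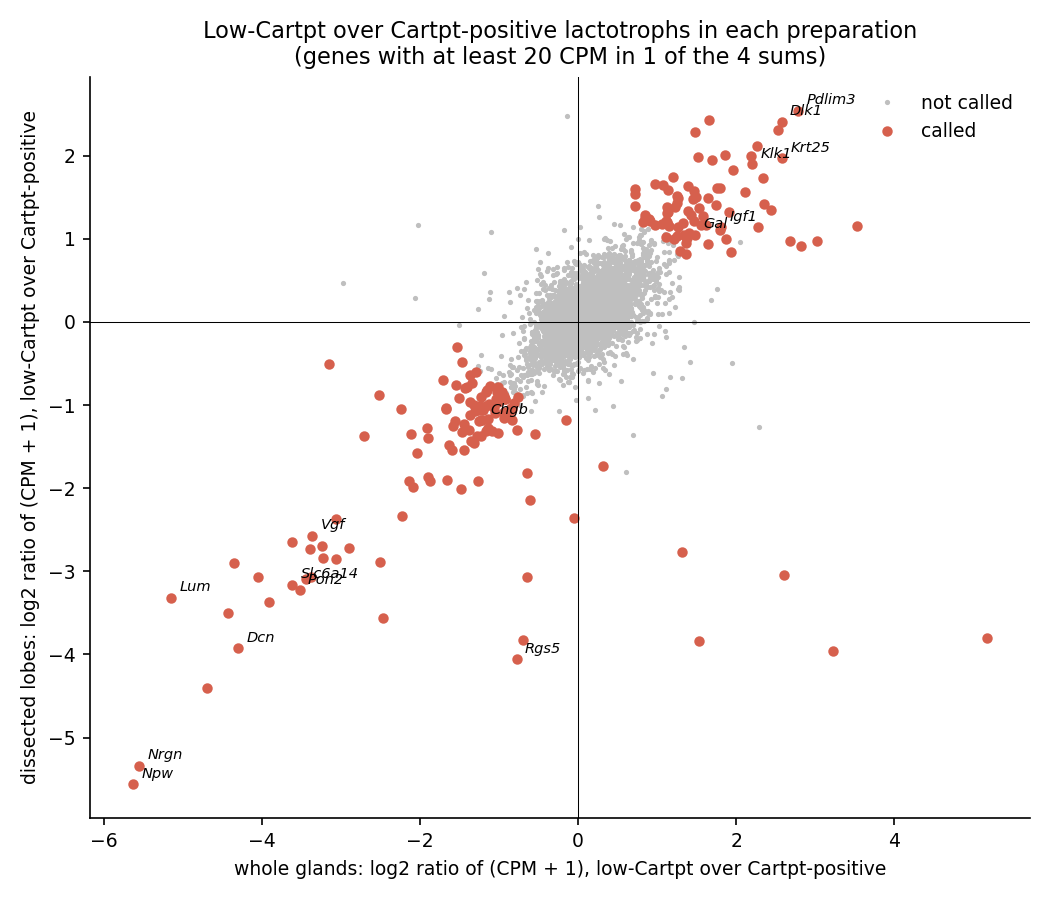
Change between low-Cartpt and Cartpt-positive lactotrophs in each preparation, as the log2 ratio of (CPM + 1) in whole glands on the horizontal axis and in dissected lobes on the vertical axis, 1 point per gene. Called genes, in red, lie mostly along the diagonal, with Npw and Nrgn at the lower left and Pdlim3 and Dlk1 at the upper right, while Rgs5 changed mainly in dissected lobes.

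The largest decreases left little of the transcript in low-Cartpt lactotrophs. Npw, the precursor of neuropeptide W, stood at 1.43 and 0.799 CPM, against 114 and 87.9 CPM in Cartpt-positive cells (log2 fold change -6.58 ± 0.19, adjusted p = 2.06e-13). Nrgn, the calmodulin-binding protein neurogranin, stood at 2.53 and 2.70 CPM, against 142 and 172 CPM (log2 fold change -5.99 ± 0.14). Dcn, the matrix proteoglycan decorin, stood at 50.7 and 43.9 CPM, against 784 and 883 CPM (log2 fold change -4.22 ± 0.10, adjusted p = 1.22e-14). Lum, the related proteoglycan lumican, stood at 5.97 and 1.14 CPM, against 68.4 and 74.7 CPM (log2 fold change -4.52 ± 0.37). A Lum UMI was found in 10.7 and 6.22% of the Cartpt-positive cells, so its level there rested on few of them. In every library the level of each of these 4 genes in low-Cartpt cells lay below that in Cartpt-positive cells. Pon2, a paraoxonase, the amino acid transporter Slc6a14 and the matrix protein Spon1 fell by 3.47, 3.57 and 3.46 on the log2 scale. Rgs5, a regulator of G protein signalling known from pericytes, was also called (log2 fold change -3.92 ± 0.59), but DESeq2 gave an adjusted p of 0.255 and the call rested on the anterior library. Its level in Cartpt-positive cells was 129 CPM there and at most 9.58 CPM in the other libraries, and without the anterior library the log2 fold change was -0.97 with an adjusted p of 0.62.

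The 4 listed fibroblast markers, Col1a1, Col3a1, Dcn and Lum, summed to 61.2 and 49.4 CPM in low-Cartpt cells of dissected lobes and whole glands, against 894 and 958 CPM in Cartpt-positive cells. The same sum was 24355 CPM in the Dcn-rich cells, and 2 of the 4 markers were higher in Cartpt-positive cells in both preparations. The 3 pericyte markers summed to 35.7 and 26.5 CPM, against 144 and 24.4 CPM. The 3 erythroid transcripts summed to 105 and 54.9 CPM, against 833 and 2.64 CPM, and the 4 macrophage markers to 138 and 94.6 CPM, against 174 and 253 CPM. The part of other cells' RNA in these differences was not tested, and with doublet scores over 0.25 left out Dcn and Lum had log2 fold changes of -4.25 and -4.55. Over all calls, 23 of the 189 higher genes stood in low-Cartpt cells at under 10% of their level in the class richest in them, and 86 of the 281 lower genes did so in Cartpt-positive cells.

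Of 21 granin and prohormone processing genes tested, 4 were lower in low-Cartpt cells and 1 was higher, against 2.16% and 1.45% of all genes. Chgb, chromogranin B, stood at 10412 and 11102 CPM, against 23598 and 25700.2 CPM (log2 fold change -1.28 ± 0.07, adjusted p = 4.94e-10). Vgf, a neuroendocrine peptide precursor, stood at 128 and 92.8 CPM, against 766 and 963 CPM, a log2 fold change of -3.08 ± 0.20. Chga, chromogranin A, and Pcsk2, a prohormone convertase, were the other genes lower, and Klk1 was the gene higher. Pcsk2 stood at 6.59 and 6.43 CPM, against 38.2 and 60.8 CPM (log2 fold change -2.95 ± 0.19). Pcsk2 is also 1 of the 3 listed melanotroph markers, which summed to 10.1 and 8.10 CPM, against 40.8 and 64.8 CPM. Only 1 of the 3, Pcsk2 itself, was higher in Cartpt-positive cells in both preparations. The part of melanotrophs was not tested. Scg2, secretogranin II, had a log2 fold change of -0.91 ± 0.07 and Resp18 one of -0.27 ± 0.07, both under the fold limit. The list's median log2 fold change was -0.20, against 0.01 over all genes.

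Over all genes tested 1.45% were higher and 2.16% lower, which is the background for the counts that follow. Among 16 estrogen-responsive pituitary genes tested, Gal, Klk1 and Igf1 were higher, the cyclin Ccnd1 was lower and 12 were not called, with a median log2 fold change of 0.47. Ccnd1 had -1.23 ± 0.24, and without the anterior library -1.18 with an adjusted p of 0.113. Of 29 local peptides and growth factors 4 were higher and 3 lower, Igf1 and Gal among the higher and Ptn, the growth factor pleiotrophin, among the lower (log2 fold change -2.11 ± 0.13). Of 24 lineage transcription factors 1 was higher and 1 lower. Nr4a2, a nuclear receptor induced by many stimuli, had 1.08 ± 0.11, or 0.99 without the posterior library, and the ETS factor Etv1 had -1.31 ± 0.08. Pou1f1 had a log2 fold change of 0.21 ± 0.07 (adjusted p = 0.0525), and Six6 had -0.18. Of 35 receptors for hypothalamic and local signals, Drd4 and Gnrhr, the dopamine D4 and gonadotropin-releasing hormone receptors, were higher and Cckbr, a cholecystokinin receptor, was lower. Drd4 had 1.53 ± 0.25 (adjusted p = 0.000677), and 0.0506 was the adjusted p by DESeq2. Gnrhr had 1.93 ± 0.33 and is also a gonadotroph marker. The 4 gonadotroph markers summed to 351 and 280.3 CPM, against 131 and 48.2 CPM, and the part of such cells was not tested. Drd2 and Agtr1b had log2 fold changes of 0.45 ± 0.12 and -0.41 ± 0.09, with adjusted p of 0.02 and 0.00489, both below the fold limit. Of 16 steroid and nuclear receptors 1 was higher and none lower. Esr1 and Pgr had log2 fold changes of 0.68 ± 0.22 and 0.50 ± 0.18 with adjusted p of 0.0586 and 0.0898. Trhr had -0.11 ± 0.16, Isl1 0.51 ± 0.49 and Prlr 0.16 ± 0.83. Vip had 3.97 ± 1.29 with an adjusted p of 0.0623, from at most 1.37 CPM in any library of Cartpt-positive cells. With the thyrotroph class left out and all libraries kept, an alternative chosen after the data were seen, Vip had 3.97 with an adjusted p of 0.00662, so its call depended on the classes in the fit.

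Of 32 genes of secretory load and the unfolded protein response, Creb3l1, a transcription factor of the secretory pathway, was the 1 called, and it was higher. The chaperones Hspa5 and Calr and the translocon gene Sec61b had log2 fold changes of -0.18, -0.31 and -0.16. Of 30 vesicle fusion and exocytosis genes 1 was higher and 2 lower. The gene higher was Stx1a, a syntaxin (1.33 ± 0.32), with an adjusted p of 0.0824 when the anterior library was left out and of 0.0577 when the first whole-gland lane was. Snap25, a membrane fusion protein, had a log2 fold change of -0.71 ± 0.07, below the fold limit. Hepacam2 had -0.63 ± 0.08, and of 26 adhesion and synaptic genes 1 was higher and 4 lower. Ion channels gave 2 higher and 1 lower of 36, G protein and cyclic nucleotide signalling 1 and 1 of 36, the cell cycle 1 and 1 of 20, imprinted genes 2 and 1 of 14, and lipid and sterol genes 1 and 0 of 18. Cdkn1c, an imprinted inhibitor of the cell cycle, had 1.29 ± 0.16 and counts in both of its lists. The sodium channel subunit gene Scn3b had -0.88 and was not called. Other abundant members of the lists, none of them called, had log2 fold changes from -0.33 for the adhesion gene Cadm1 to 0.60 for the orphan receptor Nr4a1. They were Acly, Apoe, Bdnf, Cacna2d1, Cdkn1b, Epcam, Gabbr1, Gnai2, Mest, Nalcn, Pcna, Peg3, Prkar1a, Scd2, Stmn1, Syt4, Syt7, Thra, Thrb, Xbp1 and the 2 annotated entries named Gnas. Of 22 immediate early and stress genes Nr4a2 and Gadd45b were higher and none lower, and Fos, Junb and Btg2 had log2 fold changes of 0.42, 0.56 and 0.75 with SEs of 0.14 to 0.17. Btg2, at 0.75, was below the fold limit, and with the Cartpt limit at 0.1% it had 1.04 and passed.

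In deeper cells Klk1 and Dlk1 stood lower, and Vgf, Dcn and Pon2 higher, with each step in Cartpt when the preparations were summed, also between low-Cartpt cells with and without a Cartpt UMI. Lactotrophs with at least 10000 UMIs were placed in 6 classes of Cartpt share, from no Cartpt UMI (4371 cells) through above 0 and below 0.03% (425 cells), both of them low-Cartpt lactotrophs, to 1% or more (85 cells). Klk1 stood at 1541, 1125, 617, 428, 268 and 212 CPM from the lowest class to the highest. Vgf stood at 87.8, 301, 667, 763, 887 and 983 CPM over the same classes, and Dcn at 34.9, 162, 417, 709, 842 and 1262 CPM. Each preparation alone gave these orders for Klk1 and Vgf, and for Dcn the whole glands had 917 CPM in the fourth class, above the 837 CPM of the fifth. Dlk1 stood at 631, 416, 174, 117, 81.2 and 74.4 CPM and Pon2 at 70.0, 145, 348, 575, 848 and 1415 CPM. In dissected lobes alone Dlk1 had 98.4 CPM in the fourth class, below the 106 CPM of the fifth. Whole glands had 149.0 CPM in the third and 149.5 CPM in the fourth class, and 22.8 CPM in the fifth and 42.4 CPM in the highest, so the full Dlk1 order held for the summed preparations and in neither alone. Nrgn had at most 39.3 CPM in the first 4 classes, 141 CPM in the fifth and 390.1 CPM in the highest, so most of its range lay above the Cartpt share at which Vgf had reached most of its own. Gal was at 2138 and 1667 CPM in the 2 low-Cartpt classes and between 606 and 846 CPM in the rest. Agtr1b showed no order, with 181 CPM in the lowest and 197 CPM in the highest class. These levels share cells with the selection and were given no test.

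**Figure D2:**
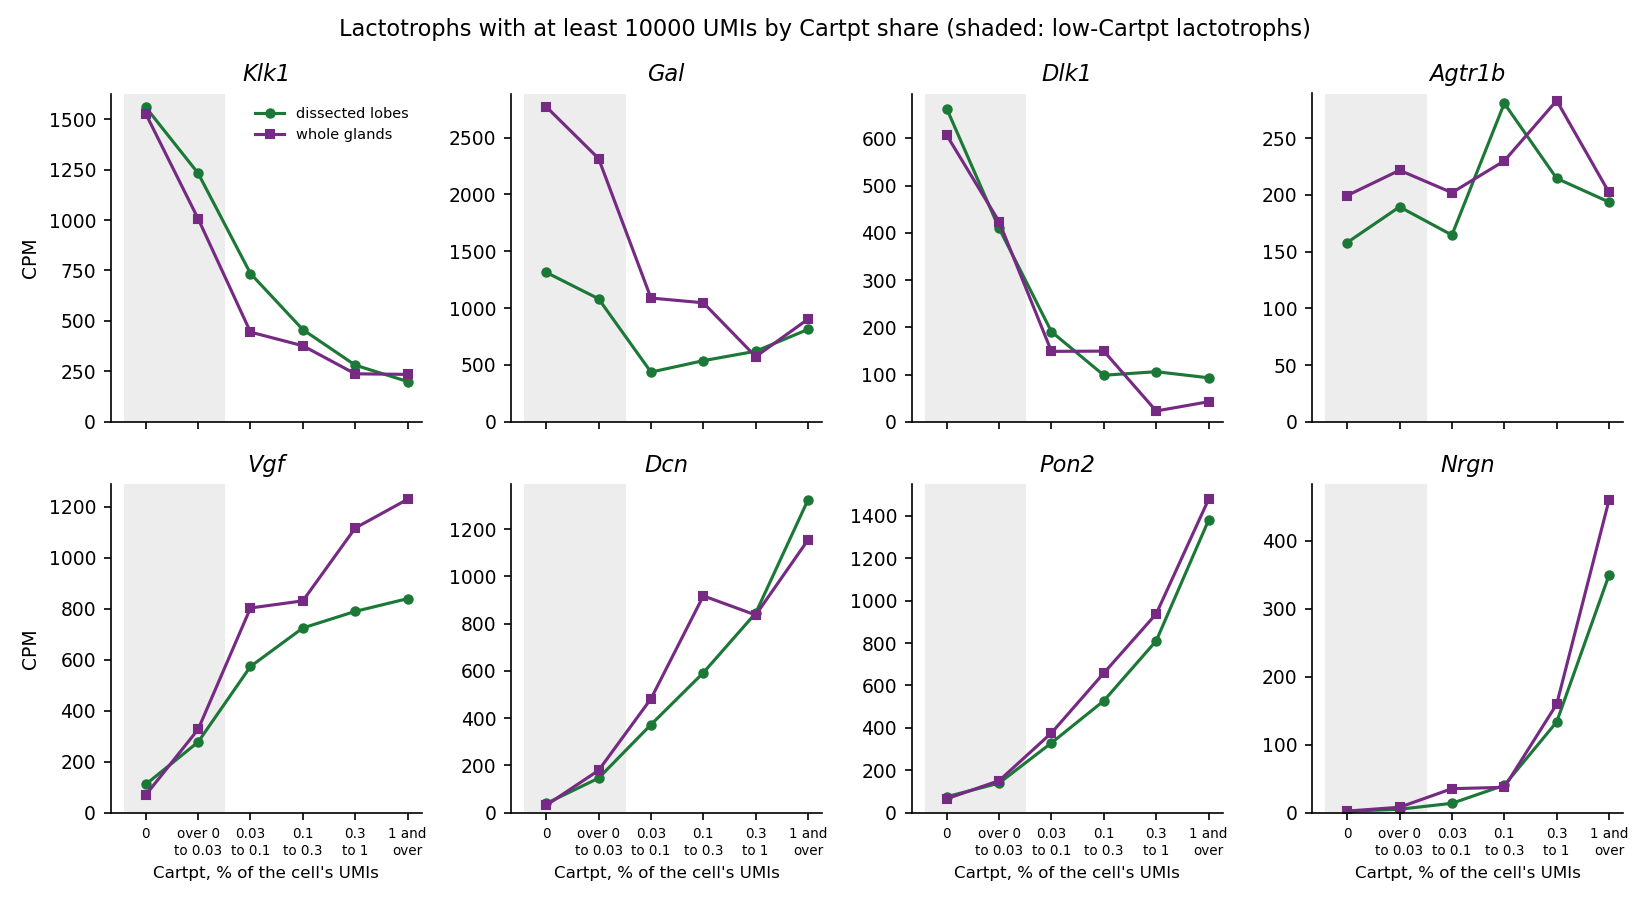
Levels of 8 genes, in CPM, across 6 classes of Cartpt share, low to high, among lactotrophs with at least 10000 UMIs, for dissected lobes (circles) and whole glands (squares). Klk1 and Dlk1 are lower and Vgf, Dcn and Pon2 higher in the second class than in the first, and both of these shaded classes are low-Cartpt lactotrophs.

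The 56 cells at 0.02 to 0.03% Cartpt, just inside, had 830 CPM of Klk1, 434 CPM of Vgf and 221 CPM of Dcn, and the 33 cells at 0.03 to 0.04%, just outside, had 737, 677 and 465 CPM. The 14 cells at 20 to 22% Prl, just inside, had 331 CPM of Klk1 and 86.4 CPM of Agtr1b, and the 28 cells at 18 to 20% Prl had 373 and 58.7 CPM. Of the 12 cells at 4 to 5% Gh1, 41.7% had a doublet score over 0.25, as had 36.4% of the 11 cells at 5 to 6%.

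The share of cells with a UMI was compared after every cell was thinned at random to 5000 UMIs, which left out 121 and 133 low-Cartpt lactotrophs of dissected lobes and whole glands. Klk1 was found in 82.5% of low-Cartpt lactotrophs in dissected lobes (exact interval 80.9 to 84.0%) and 79.7% in whole glands (78.3 to 81.1%). In Cartpt-positive lactotrophs it was found in 46.0% (39.97 to 52.1%) and 36.9% (30.1 to 44.1%). Unthinned, the shares were 92.4 and 91.3%, against 67.7 and 53.6%, at median depths of 16578 and 16759 UMIs, against 17778.5 and 15397 UMIs. S100b-rich cells (S100b at 0.05% of UMIs or more) were taken as a class that should lack the gene. They had Klk1 in 3.14 and 3.94% after thinning, with unthinned medians of 6404.5 and 5875 UMIs. Dcn was found in 5.99 and 5.14% of thinned low-Cartpt cells, against 62.8 and 64.1% of Cartpt-positive cells, while 14.6 and 16.8% of somatotrophs had it. The Dcn share in low-Cartpt cells was thus below the share in somatotrophs. The 5000 UMIs included Prl, at a median of 48.8% in low-Cartpt cells, and Gh1, at 34.6% in somatotrophs. Fewer were thus left for other genes in low-Cartpt cells, and the part of this in the Dcn shares was not tested. Gal was found in 39.3 and 53.4% of low-Cartpt cells, against 35.0 and 39.5% of Cartpt-positive cells, and in 4.08 and 5.68% of S100b-rich cells. In dissected lobes the Gal intervals of the 2 lactotroph classes overlapped (37.4 to 41.3%, against 29.4 to 41.0%). All intervals of these shares take the cells of a preparation together and cover counting error only.

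Against somatotrophs, defined by Gh1 at 20% of UMIs or more with Prl and Pomc below 5%, the low-Cartpt lactotrophs were higher for the receptor genes Drd2, Agtr1b and Trhr, the granins Chgb and Scg2 and the homeobox factors Lhx3 and Six6, and lower for the growth hormone-releasing hormone receptor, somatostatin receptors and the cholesterol synthesis genes. Of 13014 genes, 1412 were higher (10.8%) and 1092 were lower (8.39%) by the same test, with a median log2 fold change of -0.01. At an unadjusted p under 0.05 there were 8179 genes. In this comparison 1409 of the higher genes and all 1092 lower genes went the same way in both preparations.

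Of the genes with at least 50 CPM, the largest increases were of Irx6, an Iroquois homeobox factor, Sostdc1, an inhibitor of BMP and Wnt signals, and Krt25, with log2 fold changes of 7.51 ± 0.20, 7.48 ± 0.17 and 7.40 ± 0.16. Irx6 stood at 157 and 145 CPM, against 0.381 and 1.29 CPM in somatotrophs, and Sostdc1 at 121 and 121 CPM, against 0.572 and 0.857 CPM. Apoa4, the carboxypeptidase gene Cpz, Klk1, LOC304725 and Drd2 followed, with log2 fold changes from 6.88 to 7.26. Agtr1b and Trhr had 6.77 ± 0.14 and 6.17 ± 0.23. Gal had 4.01 ± 0.17 and Hepacam2 3.28 ± 0.09.

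Among the genes of at least 50 CPM lower than in somatotrophs, Pappa2, a protease of insulin-like growth factor binding proteins, had the largest decrease. It stood at 0.0478 and 0.304 CPM, against 52.3 and 57.7 CPM (log2 fold change -7.93 ± 0.23, adjusted p = 1.34e-13). Ghrhr, the receptor that drives growth hormone cells, stood at 0.573 and 0.685 CPM, against 102 and 98.2 CPM (-7.11 ± 0.14). Wfdc1, the fatty acid receptor Ffar4, Ramp1, the GABA receptor subunit Gabrb1, Pgm5 and Arhgap36 followed, with log2 fold changes from -5.60 to -5.05. Prlr was also lower, with 0.669 and 1.56 CPM against 33.2 and 32.1 CPM (-4.65 ± 0.19). The prolactin cells therefore had less prolactin receptor transcript than the growth hormone cells in both preparations. Dlk1 was lower too, with a log2 fold change of -2.80 ± 0.08, so its level was ordered somatotrophs, low-Cartpt lactotrophs, Cartpt-positive lactotrophs.

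**Figure D3:**
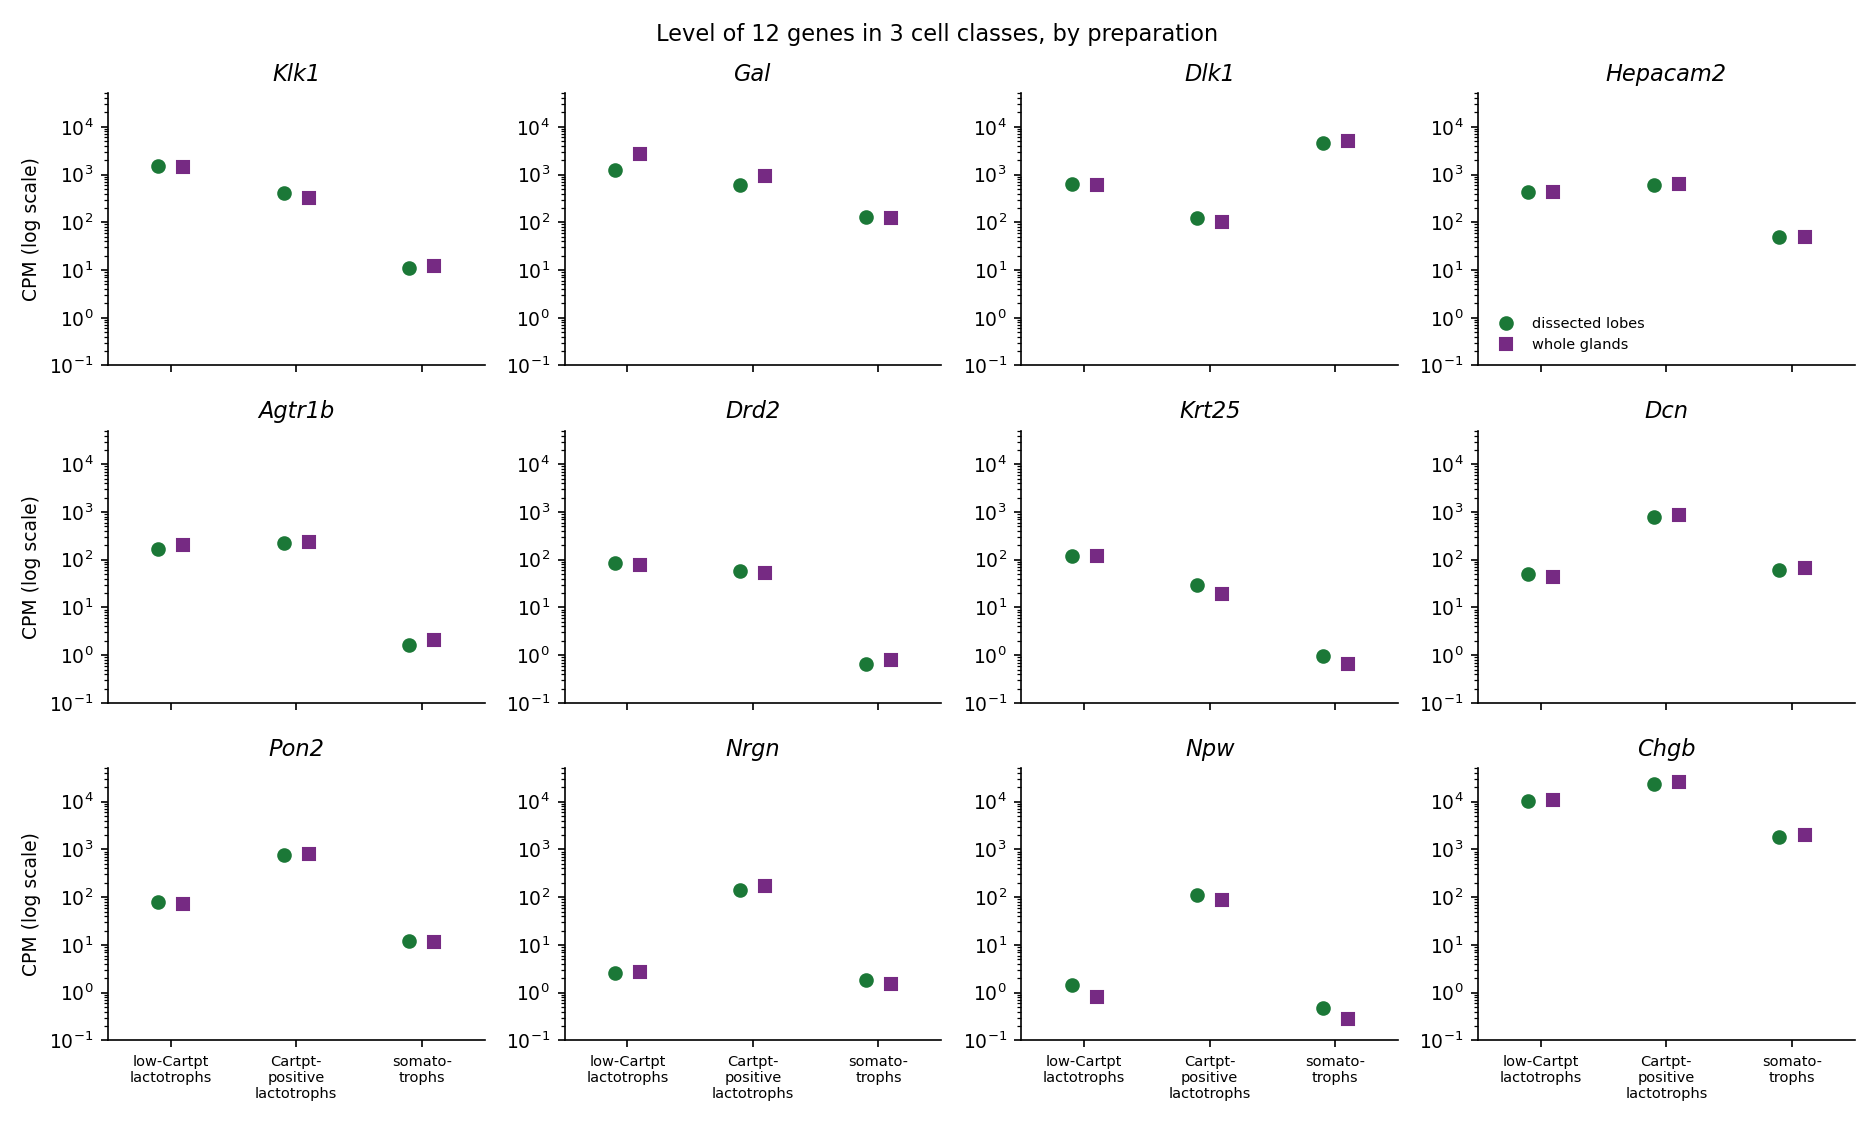
Levels of 12 genes in low-Cartpt lactotrophs, Cartpt-positive lactotrophs and somatotrophs, in CPM on a log scale, with 1 circle for dissected lobes and 1 square for whole glands. Klk1, Gal and Krt25 are highest in low-Cartpt lactotrophs, Dcn, Pon2, Nrgn, Npw and Chgb in Cartpt-positive lactotrophs, and Dlk1 in somatotrophs.

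Of 18 lipid and sterol genes tested, 9 were lower in low-Cartpt lactotrophs, against 8.39% of all genes, and none was higher, with a median log2 fold change of -0.92. All 9 belong to cholesterol synthesis, uptake or its control. Hmgcs1, HMG-CoA synthase, stood at 15.5 and 15.1 CPM, against 139 and 134 CPM in somatotrophs (log2 fold change -3.00 ± 0.08). Idi1, an isomerase of the pathway, stood at 52.4 and 40.5 CPM, against 340 and 326 CPM (-2.70 ± 0.11). Srebf2, the pathway's transcription factor, had -1.68 ± 0.08. Sqle, Fdft1 and Insig1 had -1.59, -1.41 and -1.72, and Lss, at -1.02 ± 0.12, was just past the fold limit, with -0.95 without the posterior library and -0.98 without the first whole-gland lane. The fatty acid genes Scd2 and Acly, with 0.19 and 0.48, were not called.

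Of 24 lineage transcription factors 13 were higher and 3 lower, against 10.8% and 8.39% of all genes, with a median log2 fold change of 1.05. Six6 had 3.67 ± 0.10, and Lhx3, a LIM homeobox factor, stood at 111 and 100.8 CPM, against 5.82 and 5.79 CPM (4.33 ± 0.12). Pou1f1 had 0.77 ± 0.06, which was below the fold limit. Isl1, with 1.74 ± 0.28, and Nr5a1, with 2.30 ± 0.33, are among the 13 higher and are also known from gonadotrophs. Isl1 stood at 2.64% of its level in thyrotrophs, and Nr5a1 at 2.67 and 3.19 CPM, against 0.763 and 0.572 CPM in somatotrophs. The 4 gonadotroph markers, Nr5a1 among them, summed to 351 and 280.3 CPM, against 51.5 and 42.9 CPM, and the part of such cells was not tested. Six3 and Etv1 had 2.32 ± 0.17 and 2.64 ± 0.09. Gata2, Foxo1 and Rxrg were the 3 lower, with -2.94 ± 0.15, -1.17 ± 0.11 and -4.29 ± 0.28. Of 21 granin and processing genes 7 were higher and 1 lower: Chgb had 2.64 ± 0.07, Scg2 2.39 ± 0.07, Scg3 2.25 ± 0.07 and Vgf 2.85 ± 0.23, whereas Chga had -1.26 ± 0.10. Low-Cartpt lactotrophs thus lay between somatotrophs and Cartpt-positive lactotrophs for Chgb and Vgf.

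Of 35 receptors 8 were higher and 10 lower, against 10.8% and 8.39% of all genes, the lower ones including the somatostatin receptors Sstr1, Sstr2 and Sstr5 and the ghrelin receptor Ghsr. Of 16 steroid and nuclear receptors 5 were higher and 2 lower. Drd4, at 5.02 ± 0.23, was among the higher receptors and Igf1, at 2.51 ± 0.10, among the higher growth factors. Esr1, at 0.69 ± 0.12, and Pgr, at 0.01 ± 0.09, were not called. Of 29 local peptides and growth factors 12 were higher and 4 lower, and Bdnf, brain-derived neurotrophic factor, stood at 84.5 and 99.8 CPM, against 4.39 and 3.57 CPM (4.71 ± 0.13). Of 14 imprinted genes 3 were higher, Mest with 2.89 ± 0.12 among them, and 6 lower. Estrogen-responsive genes gave 6 higher and 1 lower of 16.

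The remaining lists were mixed, beside 10.8% higher and 8.39% lower over all genes tested. Of 32 secretory load genes 4 were higher and none lower, and Hspa5 and Sec61b had log2 fold changes of 0.13 and 0.06. Of 30 exocytosis genes 3 were higher and 6 lower, with Sytl4, a granule-docking protein, at -4.63 ± 0.08. Ion channels gave 4 higher and 5 lower of 36, G protein and cyclic nucleotide signalling 9 and 6 of 36, adhesion and synaptic genes 10 and 4 of 26, and immediate early and stress genes 4 and 0 of 22. Nr4a1 was 1 of these 4 (1.26 ± 0.12). The 2 entries named Gnas went opposite ways, with 1.05 ± 0.07 for ENSRNOG00000047374 and -1.27 ± 0.07 for ENSRNOG00000025889, and how reads were shared between them is unknown, so both are uncertain. Other abundant list members, none of them called, had log2 fold changes from -0.67 for Resp18 to 0.76 for Apoe. They were Btg2, Cacna2d1, Cadm1, Calr, Cdkn1b, Epcam, Fos, Gabbr1, Gnai2, Junb, Nalcn, Pcna, Peg3, Prkar1a, Scn3b, Snap25, Stmn1, Syt4, Syt7, Thra, Thrb and Xbp1, and Vip had 0.05 ± 0.34. Of 20 cell cycle genes 8 were higher and 1 lower, and Cdkn1c had 1.87 ± 0.10. At least 3 of 9 cycle transcripts were detected in 90 low-Cartpt lactotrophs, 1.504% of them (exact interval 1.21 to 1.84%), against 0.788% of somatotrophs (0.540 to 1.11%). The 2 intervals take the cells of both pools together and cover counting error only. The order was not the same in all libraries, since the second whole-gland lane had 1.24% against 1.37%. Median depths were 16664.5 UMIs, against 10301 UMIs, and the part of depth in this difference was not tested. Among Cartpt-positive lactotrophs 8 of 509 cells had at least 3 of the cycle transcripts.

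Cells rich in both Prl and Gh1 were too few for the test, with 41 in dissected lobes, under the minimum of 50. Of all 119, 73.9% had a doublet score over 0.25, against 3.02% of low-Cartpt lactotrophs. Low-Cartpt lactotrophs had 0.573 and 0.685 CPM of Ghrhr, these cells 39.0 and 28.6 CPM and somatotrophs 102 and 98.2 CPM. For Klk1 the values were 1517 and 1469 CPM in low-Cartpt lactotrophs, 606 and 1057 CPM in these cells and 11.1 and 12.1 CPM in somatotrophs. The cells with both hormones lay between the other classes for both genes.

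Among low-Cartpt lactotrophs themselves, without the genes of the selection rule, the most uneven transcripts were Cga, Lhb, Apoe and Gal. Spread was measured as the Fano factor, the variance over the mean of counts thinned to 5000 UMIs, which is near 1 for pure sampling noise. Over 2934 genes with at least 0.1 UMIs per thinned cell in each library, the lowest Fano factor of the 4 libraries had a median of 0.997 and a 90th percentile of 1.197. Gal reached 26.4 in the posterior and 23.7 in the anterior library and 33.5 and 31.9 on the whole-gland lanes. No Gal UMI was left in 63.5% of posterior cells, against 60.2% of anterior cells and 46.7 and 46.6% on the lanes, while the richest 10% of cells held 76.3% of the Gal UMIs, against 76.2%, 69.4 and 70.6%. The mean per thinned cell was 1.99 UMIs in the posterior and 2.503 in the anterior library, and 4.88 and 5.05 on the lanes. Both dissected libraries thus lay below both whole-gland lanes for Gal. Klk1 was more even, with a zero share of 17.2 to 20.7% and 32.7 to 34.0% of its UMIs in the richest 10% of cells.

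**Figure D4:**
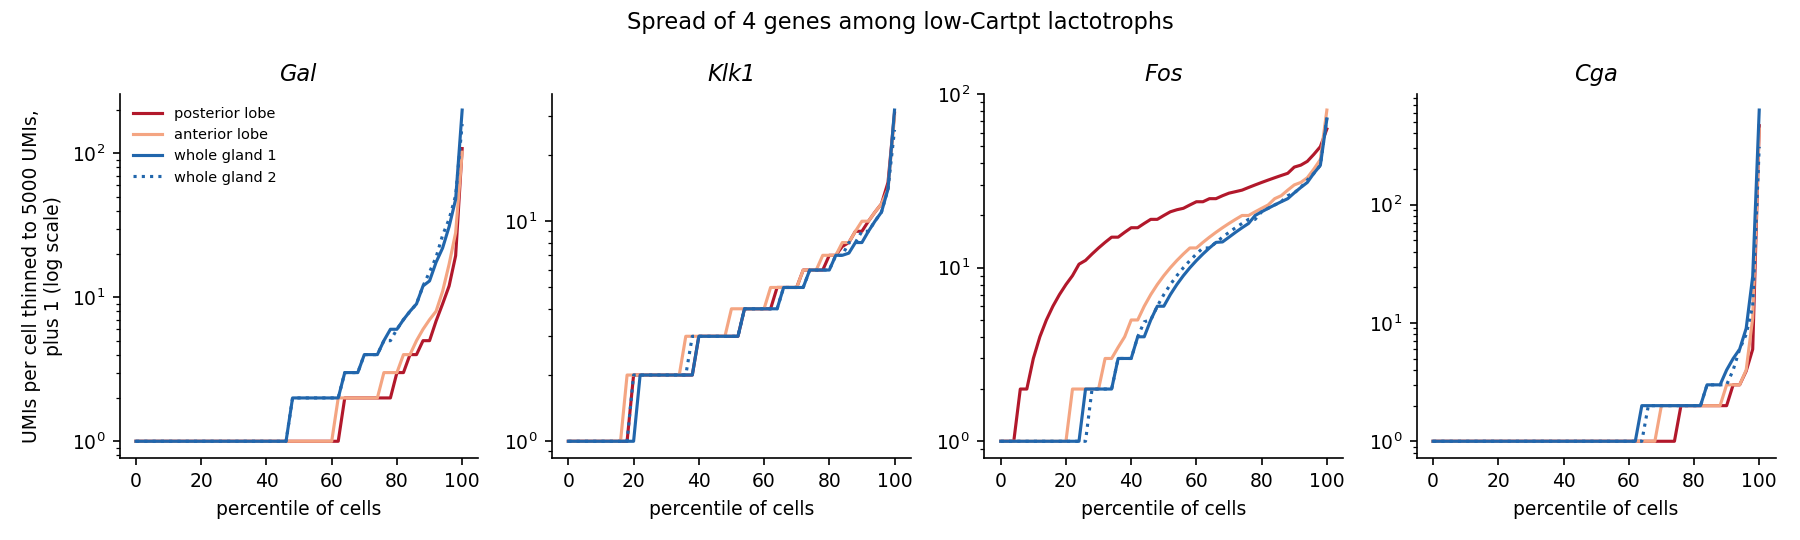
UMIs per cell after thinning to 5000, plus 1, on a log scale, against the percentile of cells, for 4 genes among low-Cartpt lactotrophs in each of the 4 libraries. Most UMIs of Gal and Cga lie at the highest percentiles, and Klk1 is found in most cells. The Fos curve of the posterior library lies above the other 3 over most of its length.

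Cga, the glycoprotein hormone alpha subunit, had the highest lowest-library Fano factor, 114, and Lhb, the luteinizing hormone beta subunit, the next at 31.7. Lhb is a listed gonadotroph marker and Cga a listed thyrotroph marker. The 2 thyrotroph markers, Tshb and Cga, summed to 1571 and 1777 CPM in low-Cartpt cells of dissected lobes and whole glands. The same sum was 2025 and 2088 CPM in Cartpt-positive cells and 308 and 323 CPM in somatotrophs. Cga reached 0.5% of UMIs in 78 low-Cartpt lactotrophs, or 1.30% (1.03 to 1.62%, counting error only). Of these 78, 42 also had Lhb at 0.3% or more, 6 passed the limit set for Tshb and 23 had a doublet score over 0.25. With scores over 0.25 left out the Cga value was 62.6 and that of Lhb 27.9, and both kept their ranks. Apoe, apolipoprotein E, had a lowest value of 29.8 and Igfbp5, a binding protein of insulin-like growth factors, 11.7, and both were counted together in single cells, with Pearson r of 0.618 in the posterior library, 0.808 in the anterior library and 0.668 and 0.693 on the lanes. Apoe in low-Cartpt cells was 2.17% of its level in S100b-rich cells. The part of doublets and stray RNA in the spread of Cga, Lhb and Apoe was not tested further. Tmsb4x, thymosin beta 4, left the top 15 without such scores, with 2.79 in place of 7.72.

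Of the immediate early and stress genes, Fos, Btg2, Junb and Gadd45g were among the 15 highest. Fos had 19.6 UMIs per thinned cell in the posterior and 11.4 in the anterior library and 9.85 and 10.1 on the lanes, with no Fos UMI in 5.82% of posterior cells, against 20.5% of anterior cells and 25.5 and 26.4% on the lanes. Fos and Junb were correlated over cells, with Pearson r of 0.715 in the posterior library, 0.780 in the anterior library and 0.790 and 0.780 on the lanes (378, 2044, 1757 and 1553 cells, log counts, cells of a library sharing its handling and depth after thinning). For Gal and Fos r lay between -0.07 and 0.02. The other genes of the top 15 were AC134224.3, the granin Chgb, the G protein subunit gene Gnas, S100g, a calcium-binding protein, and AY172581.24, with lowest Fano factors from 6.16 to 21.7. Mitochondrial genes were recognised by the Mt- prefix only, which AC134224.3 and AY172581.24 do not carry.

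In the posterior library the low-Cartpt lactotrophs had higher levels of most immediate early and stress genes than in the anterior library, while their lactotroph markers differed little. Of 22 listed genes with UMIs, 20 were higher in the posterior library, with a median ratio of 1.59, against 0.979 over the 9514 genes with at least 100 UMIs in the higher library. Fos stood at 8641 CPM in the posterior library, against 5385 CPM in the anterior library, a ratio of 1.60 (exact 95% interval 1.59 to 1.62, counting error only). Dnajb1, a heat shock cofactor, stood at 1743 CPM, against 743 CPM, a ratio of 2.34 (2.28 to 2.41), and Atf3, a stress-induced factor, at 995 CPM, against 512 CPM. Egr3, with 0 UMIs against 20, and Ier3, with a ratio of 0.735, were the 2 lower. With 1 library per lobe there is no replicate check, and the posterior cells were also deeper.

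Klk1, Gal, Hepacam2, Drd2 and Agtr1b had posterior over anterior ratios of 0.872, 0.783, 0.928, 0.965 and 1.13. In all, 26 genes were more than 2-fold higher in the posterior library and 81 more than 2-fold lower. The largest ratio was that of Igfbp2, with 119 CPM against 2.47 CPM (48.1, interval 34.8 to 68.4), and it was 23.3 with doublet scores over 0.25 left out. LOC108348061, the sodium channel gene Scn7a, Lmo1, C2cd4a and a copy of Hist2h3c2 followed with ratios from 3.11 to 7.23. The Scn7a ratio was 6.51, and 3.08 with doublet scores over 0.25 left out, and the LOC108348061 ratio was 7.23, and 10.9 with the Prl limit at 30%. The lowest ratios were those of RT1-Db1, RT1-Da and RT1-Ba, antigen-presenting molecules, and of LOC100134871, Hbb and a copy of Hba-a2. All lay between 0.0282 and 0.0754. RT1-Db1 stood at 1.17 CPM, against 41.6 CPM. Beside these values, the 4 macrophage markers summed to 60.3 CPM in posterior and 163 CPM in anterior low-Cartpt cells, the 3 erythroid transcripts to 8.01 and 136 CPM, and the 4 pituicyte markers, Scn7a among them, to 55.1 and 8.16 CPM. Their part in the ratios was not tested.

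**Figure D5:**
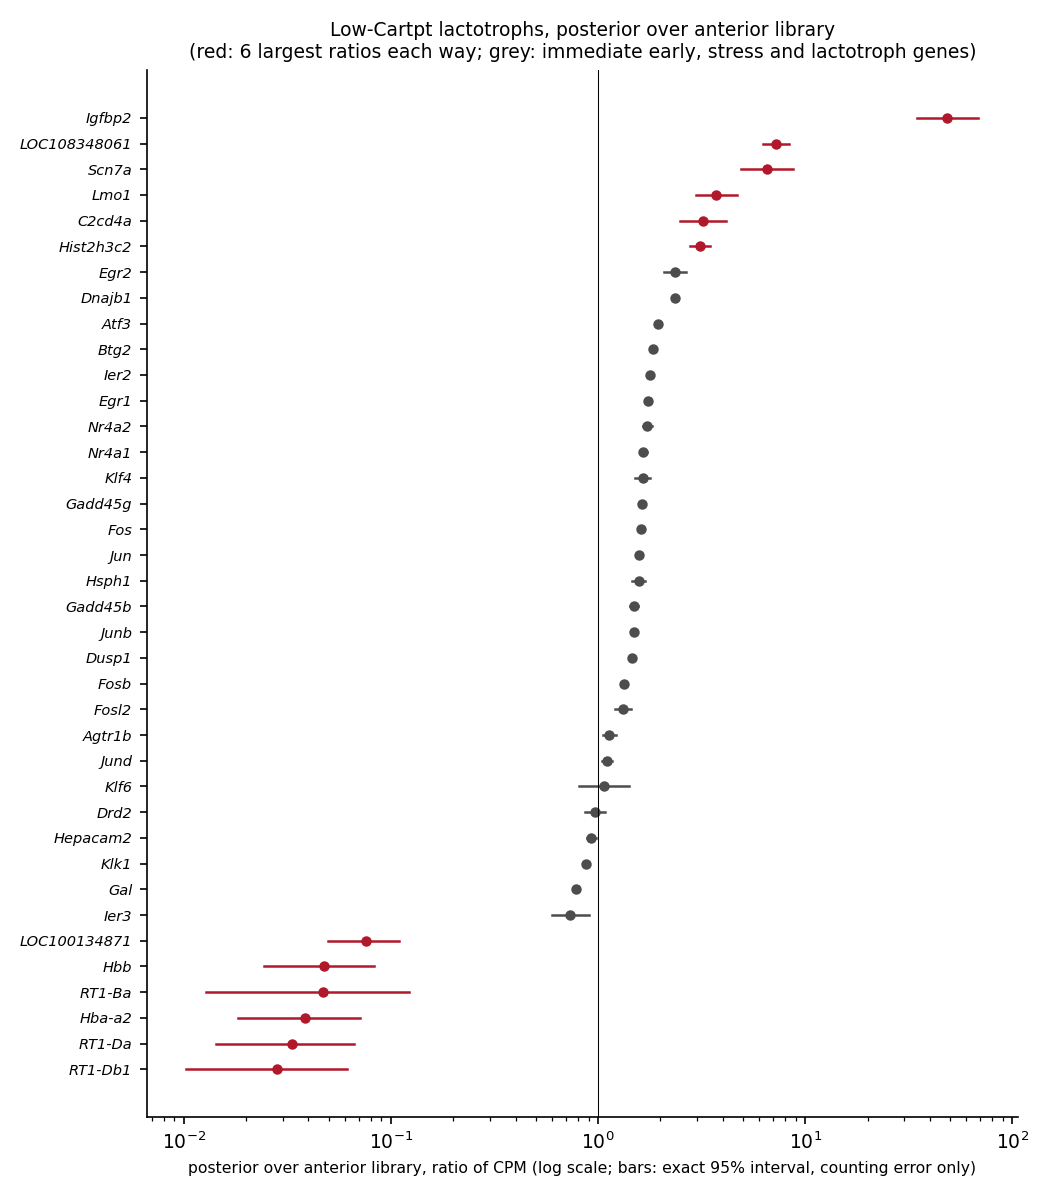
Ratio of CPM, posterior over anterior library, in low-Cartpt lactotrophs on a log scale, with exact 95% intervals that cover counting error only. The 6 largest ratios in each direction are in red, and the immediate early, stress and lactotroph genes in grey, of which most stress genes lie between 1 and 2.4 and the 5 lactotroph genes near 1.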

How the data were processed

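The deposited matrix holds raw UMI counts per gene and barcode from 3′ droplet libraries, made with Cell Ranger 3.1 per the submitters' processing notes. The genome build and annotation are not given in the sources used here. The barcode suffix gives the library, per the labels. Whole libraries held 61981865 to 72754998 UMIs.

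Counts were summed per class and preparation for the 5 classes of 50 or more cells in each preparation, without Prl, Gh1, Pomc, Cartpt and Mt- genes. They were fitted with edgeR 4.0.16 in R 4.3.3 (TMM, quasi-likelihood, terms for class and preparation, 4 residual degrees of freedom). The p-values measure how much class differences varied between the 2 pools, over all 5 classes. DESeq2 1.42.0 was an alternative. Other alternatives changed the scaling, the filters, the cells included and the libraries. Doublets were scored with Scrublet in scanpy 1.11.5 (expected rate 0.06) and kept. Fits and thinning were tested on simulated data.

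The members and lists were chosen with earlier results of these data known. Named genes are, per direction, the 8 largest called changes of at least 50 CPM that go the same way in both preparations, the 3 most abundant members of each of 15 lists, and a fixed set of markers and receptors. Other genes were named after their values were seen, as were chosen the Cga and cycle limits, the Cartpt classes, the promoters, and the S100b-, Dcn-, Plvap-, Tyrobp- and Pomc-rich classes. Promoter sequences are RefSeq's for GRCr8, whose coordinates belong to that assembly and not to the deposited counts. The planned comparison with cells rich in both Prl and Gh1 was not fitted. Some genes of the lists are counted but not reported here by name.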

Additional observations from a re-analysis of the deposited data

Results flagged for a closer look

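Of the 12 called genes of the comparison with Cartpt-positive lactotrophs that did not go the same way in both preparations, 6 had at least 50 CPM in the Cartpt-positive cells of a preparation, and they are given here. In each of the 6 the fitted change followed the dissected lobes. The difference between the preparations was not tested.

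A pair of them are annotated as the hemoglobin gene Hba-a2. Entry ENSRNOG00000047321 had a log2 fold change of -2.33. In dissected lobes it stood at 27.7 CPM in low-Cartpt cells, against 235 CPM in Cartpt-positive cells, and in whole glands at 17.2 CPM, against 1.98 CPM. Entry ENSRNOG00000029886 had -2.43, with 39.0 CPM against 554 CPM in dissected lobes and 35.1 CPM in low-Cartpt cells of whole glands, where no UMI was found in Cartpt-positive cells. LOC100134871 had -2.38, with 56.1 CPM in low-Cartpt cells, against 887 CPM in Cartpt-positive cells of dissected lobes, and with 51.5 CPM, against 4.63 CPM, in whole glands.

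The chemokine genes Ccl2 and Ccl4 had log2 fold changes of -2.26 and -2.79. Ccl2 stood at 8.17 CPM in low-Cartpt cells, against 61.2 CPM in Cartpt-positive cells of dissected lobes, and at 6.43 CPM, against 1.98 CPM, in whole glands. Ccl4 stood at 3.01 CPM, against 56.3 CPM, in dissected lobes and at 5.70 CPM, against 1.32 CPM, in whole glands. Igfbp3, which binds insulin-like growth factors, had -1.45, with 16.8 CPM against 57.8 CPM in dissected lobes and 10.1 CPM against 7.93 CPM in whole glands.

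Without the anterior library, which also took the thyrotroph class out of the fit, Ccl4 remained called, with -3.20, and the other 5 genes were not called, with log2 fold changes from -0.15 for Igfbp3 to -2.59 for the first Hba-a2 entry. Ccl4 had 2.10 without the posterior library, with an adjusted p of 0.168. With only the thyrotroph class left out the 6 were called, with log2 fold changes from -1.45 to -2.83 and adjusted p from 0.00262 to 0.0377. DESeq2 called none of the 6, with adjusted p from 0.649 to 0.837.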

How the results depend on the processing

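Against Cartpt-positive lactotrophs, genes higher numbered 117 by DESeq2, and with 1 library left out in turn 122 to 180 were higher and 197 to 291 lower. Without the anterior library 122 were higher. Against somatotrophs the same step gave 1313 to 1641 higher and 1046 to 1161 lower. Each of these fits also lost the thyrotroph class, and with only that class left out, chosen after the data were seen, 205 were higher and 318 lower than in Cartpt-positive cells and 1706 and 1274 than in somatotrophs. The share of low-Cartpt lactotrophs moved with the cells kept. With a mitochondrial limit of 10% it was 17.8% in the posterior, 45.1% in the anterior library and 39.1 and 38.3% on the whole-gland lanes. With at least 10000 UMIs it was 17.1, 56.3, 53.2 and 51.8% in this order, and with Prl at 30% it was 36.0% in the anterior library. The cause was not tested.

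Of 1215 alternative log2 fold changes of 81 genes against Cartpt-positive cells, 1153 kept their direction and call. Rgs5 turned to 2.09 and Ccl4 to 1.01 with Prl at 30%. With 1 library left out in turn, the values of genes that turned in such a step ran from -3.57 to 2.10 for Ccl4, -0.06 to 0.09 for Cacna2d1, -0.08 to 0.15 for Mest, -0.11 to 0.01 for Peg3, -0.29 to 1.63 for Prlr, -0.17 to 0.05 for Trhr and -0.03 to 0.03 for Xbp1. Apoe turned to 0.81 without high doublet scores and to 0.20 with Prl at 30%. Small values turned for Cacna2d1 (-0.04), Cdkn1b (0.03, 0.01), Peg3 (0.04), Prlr (-0.04) and Xbp1 (0.06, 0.01, 0.03) in other alternatives. Of 1260 values of 84 genes against somatotrophs, 1241 kept both. Those that turned were Cdkn1b (0.00, 0.01 and 0.03) and Pgr (-0.01, -0.00 and -0.02), and with 1 library left out in turn Btg2 ran from -0.02 to 0.38, Cdkn1b to 0.01, Pgr from -0.06 to 0.10 and Vip from -0.07 to 0.32. Vip against Cartpt-positive cells passed the threshold in 9 alternatives, with 3.56 to 7.45. With doublet scores and limits chosen after the data were seen, the LOC108348061 ratio was 10.9 with Prl at 30% and the Scn7a ratio 3.08 without high scores.

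The classes compared come from the same pools, and the preparation term of the fit is that pairing. Without it 159 genes were higher and 257 lower. Depth limits genes under about 1 CPM, and 1 library per lobe allows no test between lobes.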
